A study of Mus musculus with 6 samples.

Results

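The 10 genes described here encode the killing machinery of lymphocytes and the receptors, chemokine and regulator that go with it: Gzma, Gzmb, Gzmk, Gzmm, Prf1, Nkg7, Ccl5, Klrd1, Klrg1 and Eomes. They were chosen by symbol, as 10 of the 31053 features of each library, and were followed in cells assigned to a type by the UMIs of other, well known marker genes. A UMI is a molecular tag that marks 1 captured RNA molecule. The libraries came from 6 mice, from the lymph node that receives the drainage of the pancreas. Both groups carried a floxed gene, and they differed in the CD4-Cre transgene, which 3 mice lacked (Cre-negative 1 to 3) and 3 mice had (Cre-positive 1 to 3). Floxed DNA is deleted by CD4-Cre in T cells that pass through a Cd4-expressing stage in the thymus, which includes the CD4 and the CD8 lineage, while NK cells and B cells do not pass through it. The labels give no strain, sex or age, and they do not say how much of the floxed gene is removed.

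Cytotoxic lymphocytes kill by releasing granules onto a target cell. Perforin (Prf1) opens the target's membrane and the granzymes (Gzma, Gzmb, Gzmk, Gzmm), a family of serine proteases, enter and cleave proteins there, while Nkg7 is a granule membrane protein needed for full degranulation. Ccl5 is a chemokine that memory CD8 cells and NK cells store and release quickly, Klrd1 (CD94) pairs with NKG2 chains into a receptor for a non-classical MHC molecule, Klrg1 is an inhibitory receptor of terminally differentiated cells, and Eomes is a T-box transcription factor of NK and memory CD8 cells. Naive CD8 cells of a resting lymph node hold little protease, and most of the killing programme is switched on after antigen contact.

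After filtering, 51777 cells of 59680 barcodes remained, between 6834 and 9529 per mouse, with a median of 4244 to 5598.5 UMIs per cell, and the libraries held 47149014 to 61321105 UMIs. Pairs of libraries shared 16 to 39 barcodes, at most 0.393% of the smaller library. The gates held 8892 CD8 T cells (1202 to 1960 per mouse), 12945 conventional CD4 T cells (1922 to 2604), 326 gamma-delta T cells (32 to 70) and 58 NK cells (7 to 14). Cells of the CD8 gate had a median of 6123.5 UMIs, conventional CD4 cells 5027, gamma-delta cells 4451.5 and NK cells 5198. Several markers that the gates did not use lay where their names place them, though not every marker listed as a check did. Levels are in CPM, the UMIs of a gene relative to all UMIs of the gate in that mouse, scaled to 1000000. The receptor constant gene Tcrg-C4 stood at 230 CPM in gamma-delta cells and 1.55 in CD8 cells, Tyrobp at 1149 in NK cells and 6.26 in CD8 cells, and Cd40lg at 84.9 in conventional CD4 cells and 1.22 in CD8 cells. Txk, listed as an NK marker, stood at 360 in CD8 and 386 in conventional CD4 cells. Cd5, listed as a CD4 marker, stood at 166 in conventional CD4 cells and still at 91.5 in CD8 cells. The NK gate was less uniform: Cd74, an antigen presentation gene that stood at 14383 CPM in B cells and 12787 in myeloid or dendritic cells, ranged from 0 to 8704 over the 6 mice, and its sum with Ighm was 4903 CPM in the Cre-negative group and 413 in the Cre-positive group. The other B cell genes were low there, with Ighm at 182 to 359 (2272 in B cells), Cd79a at 6.18, Ms4a1 at 2.30 and Cd79b at 0, the last 3 being limited by the gate itself. The plasmacytoid dendritic cell genes Siglech and Bst2 summed to 600 CPM in the Cre-negative and 51.9 in the Cre-positive group.

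The genes lie on several chromosomes (coordinates of the mouse build mm10). Gzma (chr13:113093825-113100981, minus strand) and Gzmk (chr13:113171608-113225908, minus strand) are neighbours on 1 chromosome, while Gzmb lies at chr14:56258838-56262260 on the minus strand. Gzmm (chr10:79689020-79695261) and Prf1 (chr10:61297833-61304680) are both on the plus strand of chromosome 10. Klrd1 (chr6:129591782-129598775, plus strand) and Klrg1 (chr6:122270596-122282882, minus strand) share chromosome 6. Nkg7 lies at chr7:43437073-43438249 (plus), Ccl5 at chr11:83525778-83530518 (minus) and Eomes at chr9:118478212-118486132 (plus).

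Promoter windows of 250 bases before the RefSeq transcription start (build GRCm38.p6) were found for 7 of the 10 genes and searched on both strands for a T-box motif (GGTGTGA) and a RUNX motif (TGTGGTT), which share no overlapping match here. Among all 32851 windows of this length, 3.33% held the T-box letters and 4.40% the RUNX letters. The windows of Gzma and Gzmb are shown because each held the RUNX letters, in capitals, as bases TGTGGTT in Gzmb and as their reverse complement in Gzma. The match lay 51 bases before the start in Gzma (chr13:113100982-113101231, minus strand) and 34 bases before it in Gzmb (chr14:56262335-56262584, minus strand). Both windows are written 5′ to 3′ on the strand of the gene.
Gzma: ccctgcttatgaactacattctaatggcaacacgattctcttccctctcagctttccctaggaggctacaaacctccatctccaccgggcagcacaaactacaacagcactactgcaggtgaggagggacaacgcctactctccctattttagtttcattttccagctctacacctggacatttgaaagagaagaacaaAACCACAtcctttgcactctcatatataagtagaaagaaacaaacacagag
Gzmb: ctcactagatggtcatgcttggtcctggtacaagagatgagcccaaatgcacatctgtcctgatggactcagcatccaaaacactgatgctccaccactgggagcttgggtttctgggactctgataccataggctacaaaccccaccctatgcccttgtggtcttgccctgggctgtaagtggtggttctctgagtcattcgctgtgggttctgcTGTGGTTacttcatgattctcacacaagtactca
The T-box letters were found 13 bases before the start of Nkg7, 75 before that of Gzmk and 189 before 1 of the 2 starts of Gzmm. These RefSeq starts differ from the ends of the gene spans given above. The 3 matches lie inside those spans, in windows chr7:43436888-43437137 (Nkg7), chr13:113180966-113181215 (Gzmk) and chr10:79693576-79693825 (Gzmm). The windows of Prf1 and Eomes held neither motif. Such a match is a description of the letters, and binding was not measured.

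Nkg7 and Klrd1 were the members seen in most CD8 cells, and the granzymes were rare there. A UMI of Nkg7 was found in 90.3% of CD8 cells (mean of 6 mice, range 90.0% to 90.9%) and of Klrd1 in 57.9% (55.0% to 61.0%). Prf1 was detected in 22.7% (19.1% to 26.6%), Eomes in 11% (8.78% to 14.5%) and Ccl5 in 10.5% (9.69% to 11.4%). Of the granzymes Gzmm was found in 2.88%, Gzmb in 0.758%, Gzmk in 0.470% and Gzma in 0.409% of CD8 cells, and Klrg1 in 4 cells of 8892. B cells, with a median of 4370 UMIs, were taken as the background: Ccl5 3.70%, Prf1 1.20%, Nkg7 0.876%, Klrd1 0.834%, Gzmm 0.243% and less than that for the others. In these 6 mice the CD8 shares of Nkg7, Klrd1, Prf1, Eomes, Ccl5 and Gzmm all lay above the B cell shares. After each cell was thinned to 2000 UMIs, with 25 shallower CD8 cells left out, Nkg7 was still found in 64.6%, Klrd1 in 28.3% and Prf1 in 8.65% of CD8 cells.

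**Figure D1:**
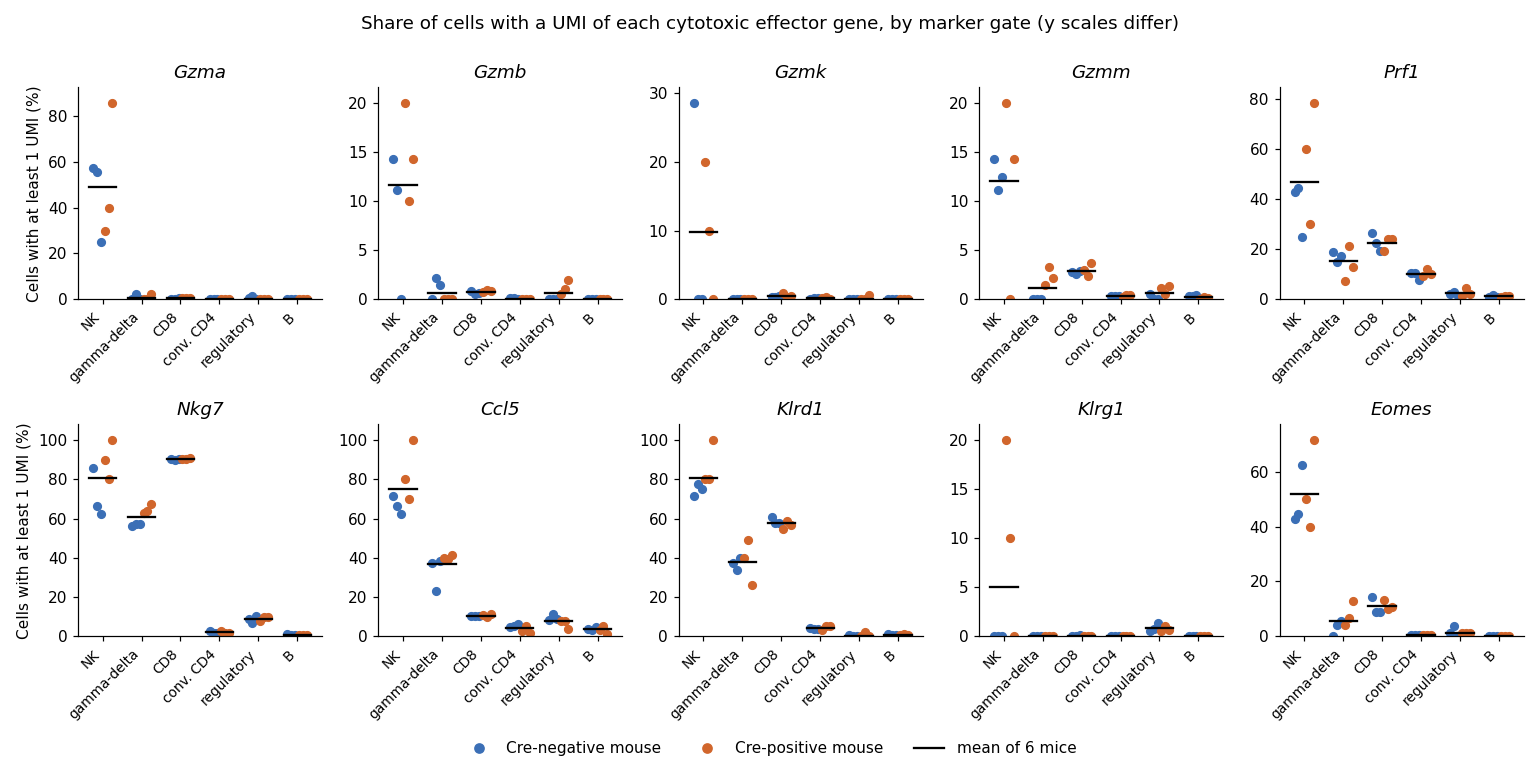
Each panel plots, for 1 gene, the percentage of cells with at least 1 UMI (y axis, scale differing between panels) in 6 marker gates, with a point for each Cre-negative (blue) or Cre-positive (orange) mouse and a bar for the mean of 6 mice. Gzma was found in 25.0% to 85.7% of NK cells and in under 1% of CD8 cells in every mouse, while Nkg7 was found in at least 90.0% of CD8 cells in every mouse.

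Levels of Nkg7 and Klrd1 in CD8 cells varied little between the 6 mice. Nkg7 stood at 524, 595 and 598 CPM in Cre-negative mice 1 to 3 and at 652, 560 and 613 in the Cre-positive mice 1 to 3. Klrd1 stood at 175, 176 and 193 and then at 188, 188 and 177. The groups overlapped for both genes, and the lowest and highest Klrd1 values differed little. Prf1 was at 45.6, 42.4 and 36.3 in the Cre-negative and 40.7, 44.3 and 41.8 in the Cre-positive mice, again overlapping. Ccl5 varied more, from 125, 160 and 196 to 247, 116 and 246, with its lowest value in a Cre-positive mouse. Eomes ranged from 20.8 to 35.3 and Gzmm from 6.26 to 12.6.

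Gzma in CD8 cells rested on 1 cell. Its level was 26.6, 0.443 and 0.987 in the Cre-negative and 0.876, 1.12 and 1.62 in the Cre-positive mice. In Cre-negative 1, 245 of the 247 Gzma UMIs of the gate were in a single cell, which also held 149 Ccl5, 37 Nkg7, 10 Gzmk and 8 Gzmb UMIs, and no Prf1 UMI. The Gzma comparison with conventional CD4 cells is therefore also given without this cell and 1 other cell. The genotype and NK comparisons of Gzma are also given without the whole mouse Cre-negative 1.

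Conventional CD4 cells had lower mean levels of every member but Klrg1, which was too rare to compare (6 UMIs in this gate, 4 in the CD8 gate). Of the members tested, Prf1 came nearest to its CD8 level. Prf1 was found in 10.0% of conventional CD4 cells (7.73% to 12.1%), Ccl5 in 4.40% (2.00% to 6.15%), Klrd1 in 4.30%, Nkg7 in 2.11% and Eomes in 0.503%. After thinning, Prf1 was found in 4.28% of conventional CD4 cells and 0.499% of B cells. The Ccl5 share in conventional CD4 cells was close to that in B cells (3.70%, 1.28% to 5.29%), so the share alone does not tell expression from background. A single cell of Cre-negative 2 held 246 of the 677 Ccl5 UMIs of this gate in its mouse. This cell had 12832 UMIs in all and no UMI of any other member, and the source of its Ccl5 was not tested. The level of Prf1 in conventional CD4 cells was 19.8, 22.0 and 17.1 CPM in the Cre-negative and 22.8, 25.2 and 19.0 in the Cre-positive mice, all below the lowest CD8 value of 36.3.

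The 8 members that passed the low-count filter were all higher in CD8 than in conventional CD4 cells, in 6 of 6 mice each. The test was the quasi-likelihood F test of edgeR on UMI sums of the 4 gates with the mouse as a block and Benjamini-Hochberg adjustment. Over all 10222 genes tested, 45% passed in this comparison, 22.8% higher and 22.2% lower in CD8 cells. A gene low in CD4 cells could pass the filter only through the other gates, so the count of 8 is no support of its own. On the log2 scale the difference was 5.87 for Nkg7 (SE 0.12, adjusted p = 1.24e-16), 4.33 for Klrd1 (SE 0.05), 4.19 for Eomes (SE 0.11) and 1.11 for Prf1 (SE 0.06, adjusted p = 6.09e-61), a fold of 2.15 for Prf1 against 58.7 for Nkg7. Gzmm differed by 3.88 (SE 0.19), Gzmb by 3.23 (SE 0.34) and Ccl5 by 2.47 (SE 0.32). Gzma differed by 3.58 (SE 0.85, adjusted p = 0.00241 in edgeR). Without the cell rich in Gzma and 1 conventional CD4 cell that held 246 of 677 Ccl5 UMIs of its mouse, it differed by 1.23 and did not pass (adjusted p = 0.0969). Without Cre-negative 1 the Gzma difference was 1.37 and passed (adjusted p = 5.38e-04). Gzmk and Klrg1 were under the filter in this fit.

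Regulatory T cells, gated from the same CD4 cells by Foxp3 UMIs, had less Prf1 and Klrd1 and more Nkg7 than conventional CD4 cells. Prf1 was at 21.0 ± 2.93 CPM in conventional and 4.05 ± 1.93 in regulatory cells (mean ± SD, n = 6 mice), a log2 difference of 2.51 (SE 0.21, adjusted p = 1.60e-12 in edgeR). The share of regulatory cells with Prf1 was 2.37%, against 1.20% of B cells. Klrd1 was higher in conventional cells by 3.10 on the log2 scale (SE 0.48, adjusted p = 5.73e-05), and by 5.59 without Cre-positive 2, which held 7 of the 8 Klrd1 UMIs of this gate. Nkg7 was at 11 ± 4.27 in conventional and 76.7 ± 24 in regulatory cells (n = 6), lower by a log2 difference of -2.65 (SE 0.32, adjusted p = 0.00156). Over the 10166 genes tested, 33.7% passed, 16.7% higher and 17% lower. Ccl5 and Eomes did not pass, with log2 differences of -1.60 (adjusted p = 0.257) and -0.92 (adjusted p = 0.125). This comparison was added after the data had been seen.

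Gamma-delta T cells had Nkg7 and Klrd1 levels near those of CD8 cells, with a UMI in a smaller share of cells. Nkg7 was found in 60.8% of gamma-delta cells (56.2% to 67.4%) at 587 ± 94.5 CPM, against 90.3% of CD8 cells at 590 ± 43.9 (mean ± SD, n = 6). A gamma-delta cell positive for Nkg7 held 4.51 UMIs and a positive CD8 cell 4.34, although the median CD8 cell was deeper. Klrd1 was found in 37.8% of gamma-delta cells (26.1% to 49.2%) and Prf1 in 15.4% (7.14% to 21.3%). At 2000 UMIs per cell the Nkg7 share was 48.7% in gamma-delta cells, with 15 cells left out, and 64.6% in CD8 cells. The 326 cells of this small gate held 5 UMIs of Gzmm, 2 of Gzma, 2 of Gzmb and none of Gzmk or Klrg1. A count of 0 allows a share of cells with a UMI of up to 0.920%, and says nothing of cells whose RNA was not captured. As a level, Gzma stood at 1.49 CPM and Gzmb at 1.33.

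Ccl5 was the member that set gamma-delta cells apart from CD8 cells. It was found in 36.7% of them (23.4% to 41.3%), with a level of 1170 ± 409 CPM against 181 ± 57.5 in CD8 cells (mean ± SD, n = 6), a log2 difference of 2.47 (SE 0.40, adjusted p = 3.99e-04 in edgeR) in 6 of 6 mice. Gzmm was lower, at 3.17 against 9.47 CPM, by a log2 difference of -1.78 (SE 0.55, adjusted p = 0.0175). This call rested on 5 UMIs. It was lost with DESeq2 (adjusted p = 0.117) and without Cre-negative 2 (0.0716), Cre-negative 3 (0.0909) or Cre-positive 1 (0.0798). Over all genes tested in this comparison 9.43% passed, 4% higher and 5.43% lower, and of the 8 members tested 1 was higher and 1 lower. Klrd1 (-0.24, adjusted p = 0.0876), Nkg7 (-0.26, adjusted p = 0.387), Prf1 (-0.43, adjusted p = 0.201) and Eomes (-0.42, adjusted p = 0.369) did not pass. The 95% intervals, taken from the SE, ran from -0.55 to 0.04 for Nkg7 and from -0.83 to -0.03 for Prf1 before adjustment.

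NK cells held the most of nearly every member, on 7 to 14 cells per mouse. Gzma was found in 48.9% of NK cells (25.0% to 85.7%), Prf1 in 46.8%, Eomes in 51.9%, Ccl5 in 75.1%, Nkg7 in 80.8% and Klrd1 in 80.7%. Gzmm was found in 12%, Gzmb in 11.6%, Gzmk in 9.76% and Klrg1 in 5%, each a handful of cells. The Gzma level was 5727, 2679 and 590 CPM in the Cre-negative and 3231, 1065 and 3991 in the Cre-positive mice, so the lowest NK value was above the 26.6 of the highest CD8 value. Eomes was at 515, 152 and 197 in the Cre-negative and 545, 152 and 330 in the Cre-positive mice, and Ccl5 at 7110, 2873 and 5139 and then 6705, 6270 and 10074. In every mouse these 3 genes were higher in NK than in CD8 cells, and the genotypes overlapped.

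Against CD8 cells, 7 of the 8 members tested were higher in NK cells, where 17.9% of all genes passed, 5.75% higher and 12.2% lower. The median of all genes tested was -0.35 on the log2 scale in this comparison, and the values here are to be read against it. A gene low in the other gates, as Gzma was, could pass the filter only through NK cells, so the count of 7 is no support of its own. Gzma differed by 8.74 (SE 0.44, adjusted p = 1.04e-10 in edgeR) and by 10.42 without Cre-negative 1. Gzmb differed by 4.89 (SE 0.46), and by 3.06 (adjusted p = 0.00195) without Cre-positive 1, whose NK cells held 464 Gzmb CPM against 0 to 64.3 in the other mice. Ccl5 differed by 4.49 (SE 0.42), Eomes by 2.89 (SE 0.21), Prf1 by 1.97 (SE 0.21) and Klrd1 by 1.41 (SE 0.11). Nkg7 differed by 0.86 (SE 0.20, adjusted p = 0.00591), a call lost without Cre-positive 3 (adjusted p = 0.0539) and with looser gates (0.691). Gzmm did not pass (0.87, SE 0.56, adjusted p = 0.303). The Cd74 and plasmacytoid gene levels of the Cre-negative NK gate, given above, were not tested for a part in these values.

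**Figure D2:**
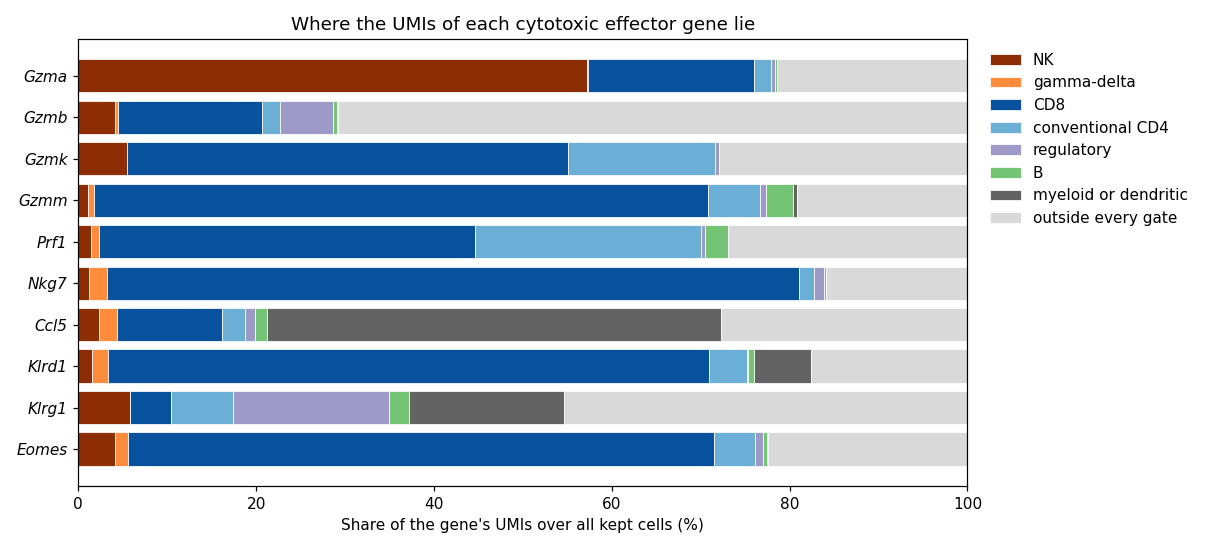
Each bar divides the UMIs of 1 gene over all kept cells (x axis, percent) between the 7 marker gates and the cells outside every gate. CD8 cells held 77.8% of Nkg7 UMIs and 67.6% of Klrd1 UMIs, NK cells 57.2% of Gzma UMIs, myeloid or dendritic cells 51.1% of Ccl5 UMIs, and cells outside every gate 70.8% of Gzmb UMIs.

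The members also differed in how much of their RNA lay outside the lymphocyte gates. CD8 cells held 65.9% of Eomes, 69.0% of Gzmm and 49.5% of Gzmk UMIs, and the 58 NK cells held 57.2% of all Gzma UMIs. Prf1 UMIs were spread over CD8 cells (42.3%) and conventional CD4 cells (25.4%). Ccl5 was found in 54.8% of 1882 myeloid or dendritic cells at 5887 ± 1480 CPM (mean ± SD, n = 6), as a group close to the NK cells, and these cells held 51.1% of its UMIs against 11.7% in CD8 cells. The number of members found per cell was 4.23 on average in NK cells (67.2% of them with 4 or more), 1.97 in CD8 cells (6.57% with 4 or more), 1.59 in gamma-delta cells, 0.221 in conventional CD4 cells and 0.0705 in B cells.

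Within CD8 cells Gzmm, Gzmk and Eomes were each found in a larger share of cells with Ccl5 than of cells without it. Each was still missing from most cells with Ccl5. Of the 933 cells with a Ccl5 UMI, 18.6% held Gzmm, against 0.993% of cells without Ccl5. Eomes was found in 27.9% against 8.91% and Gzmk in 4.18% against 0.0377%. Of the 42 cells with Gzmk, 92.9% held Ccl5 and 100% held Nkg7, while 38.1% held Klrd1 against 57.9% of the other cells. Of the 253 cells with Gzmm, 68.8% held Ccl5 and 41.9% Eomes. Ccl5-positive cells were deeper (median 7715 against 6010 UMIs), so the shares were also taken at 2000 UMIs per cell: Gzmm was then found in 10.8% against 0.445%, Prf1 in 8.61% against 8.69% and Klrd1 in 28.8% against 28.4%. Gzma and Gzmb met in 1 of the 37 cells with Gzma. Of these 37 cells 40.5% held Ccl5, against 10.4% of the others, and of the 68 cells with Gzmb 45.6% held Klrd1, against 57.9%. These shares over cells of all mice are a description, and no test was made of them.

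The comparison of Cre-positive with Cre-negative mice asks whether these genes differ with the CD4-Cre transgene in mice that carry the floxed gene. Deletion was not examined in any gate, so a difference in gamma-delta cells cannot be tied to deletion within those cells. In CD8 cells 0 of the 9 members tested passed, by edgeR or by DESeq2, and 0 had an unadjusted p under 0.05. Over all 10656 genes tested 0.0282% passed and 6.78% had an unadjusted p under 0.05. The log2 differences, Cre-positive over Cre-negative, were 0.03 for Klrd1 (95% interval from -0.13 to 0.19), 0.10 for Nkg7 (-0.09 to 0.29) and 0.05 for Prf1 (-0.12 to 0.22). Gzmm had 8.11 CPM in the Cre-negative and 10.8 in the Cre-positive mice, a difference of 0.41 (-0.02 to 0.83, adjusted p = 0.773). Ccl5 differed by 0.35 (-0.47 to 1.17) and Eomes by 0.04 (-0.41 to 0.50). Gzma differed by -2.91 (SE 1.82, adjusted p = 0.830) and by 0.71 without Cre-negative 1. Gzmb and Gzmk differed by -0.15 and 0.11, with intervals from -0.86 to 0.56 and from -0.70 to 0.92. Klrg1 was under the filter. Where intervals were narrow, as for Klrd1, Nkg7 and Prf1, larger changes than their bounds were not seen, and where they were wide, as for Ccl5, a moderate change was not detectable in these data.

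In conventional CD4 cells 0 of the 5 members tested passed by edgeR or DESeq2, and 0 had an unadjusted p under 0.05, where 0.00902% of all 11085 genes passed and 5.1% had an unadjusted p under 0.05. Prf1 stood at 19.6 CPM in the Cre-negative and 22.3 in the Cre-positive mice (0.20, interval -0.01 to 0.41, adjusted p = 0.899). Eomes differed by 0.55 (interval -0.13 to 1.22), Klrd1 by 0.17, Nkg7 by 0.20 and Ccl5 by -0.65 (interval -1.98 to 0.68). The difference of the genotype effect between CD8 and conventional CD4 cells was tested as an interaction, in which 0.0445% of 11237 genes passed. None of the 9 members tested passed it with edgeR or DESeq2, and none had an unadjusted p under 0.05, a level that 5.34% of all genes reached.

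**Figure D3:**
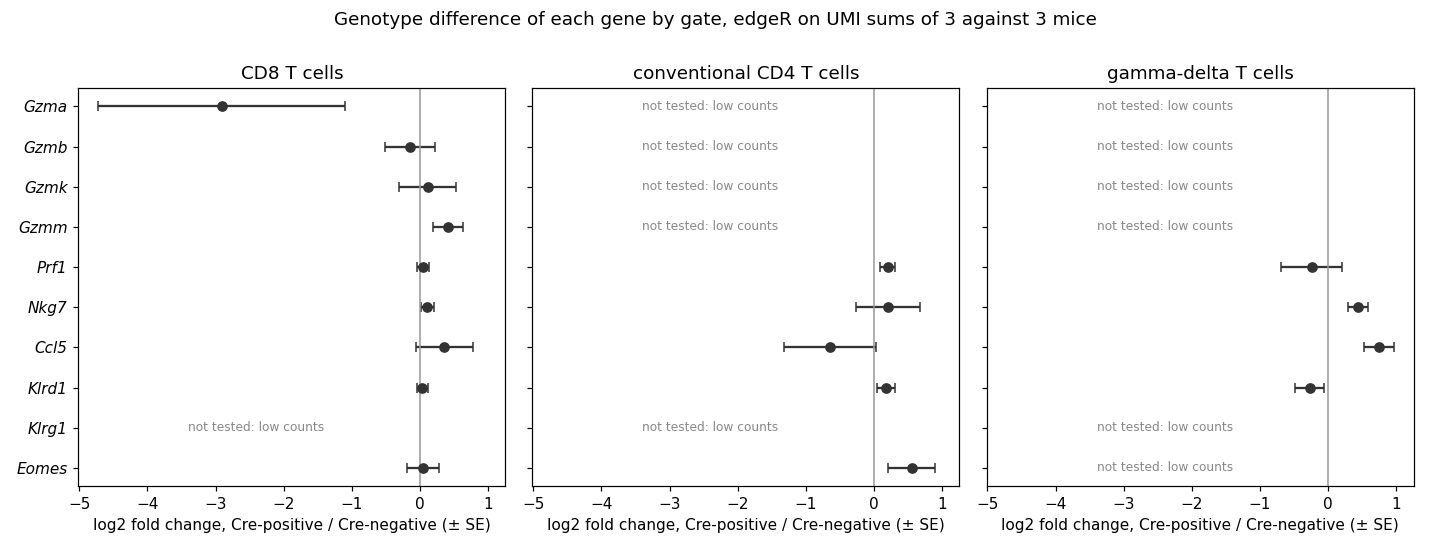
Points give the log2 fold change of each gene, Cre-positive over Cre-negative (x axis), and bars its standard error, from edgeR on sums of 3 against 3 mice in CD8, conventional CD4 and gamma-delta T cells. Nkg7 (0.44) and Ccl5 (0.74) lay above 0 in gamma-delta cells without passing the adjusted test, and the low Gzma point in CD8 cells (-2.91) rests on 1 cell of Cre-negative 1.

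In gamma-delta T cells 0 of the 4 members tested passed with edgeR or DESeq2, where 0% of 3464 genes passed, and 2 had an unadjusted p under 0.05, a level that 4.99% of all genes reached. Nkg7 was at 481, 533 and 503 CPM in the Cre-negative and 631, 673 and 705 in the Cre-positive mice, a log2 difference of 0.44 (SE 0.14, adjusted p = 0.854). The groups did not overlap for Nkg7, and 10.6% of all genes tested did not overlap in this gate. Ccl5 was at 614, 912 and 1120 in the Cre-negative and 1673, 1085 and 1614 in the Cre-positive mice, a difference of 0.74 (SE 0.22, adjusted p = 0.918), with Cre-positive 2 below Cre-negative 3. Ccl5 passed in 5 of 15 other settings and failed in the rest, with an adjusted p of up to 0.9999. It passed with no low-count filter (0.75, adjusted p = 0.00185 in edgeR), at 5% mitochondrial UMIs (0.98, 0.00117) and with the replicate number as a block (0.75, 0.0329). It also passed without Cre-negative 3 (0.98, 0.00292) and without Cre-positive 2 (0.94, 0.00246), the mice whose levels overlap. The share of gamma-delta cells with Ccl5 at 2000 UMIs per cell was 26.1% ± 2.73 in the Cre-negative and 37.2% ± 1.92 in the Cre-positive mice (mean ± SD, n = 3, exact two-sided permutation p = 0.1, the smallest that 3 against 3 mice can give). It was picked as the 1 of 40 share comparisons at this depth that reached this p, and 0 of the 40 passed the adjustment. B cells, which held the background of Ccl5, had shares of 4.04%, 3.25% and 4.90% in the Cre-negative and 3.46%, 5.29% and 1.28% in the Cre-positive mice, which overlap. The gate held 32 to 70 cells per mouse. Klrd1 (-0.27) and Prf1 (-0.24) did not pass.

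In NK cells no edgeR test of levels by genotype was made, since each mouse had fewer than 20 cells in the gate. The Klrd1 share was 71.4%, 77.8% and 75.0% in the Cre-negative and 80.0%, 80.0% and 100% in the Cre-positive mice, without overlap, on 7 to 14 cells per mouse. Among the 40 comparisons of shares described below, the groups did not overlap in 5. That number was 1 after thinning to 2000 UMIs per cell and 1 with stricter gates. If the groups do not differ, non-overlap of 3 against 3 mice has a probability of 0.1 in each comparison. Shares of cells were not compared for all other genes, so the 5 are no result about the members. The Prf1 level was 225, 193 and 73.8 CPM in the Cre-negative and 545, 67.6 and 385 in the Cre-positive mice and overlapped. Shares of positive cells were compared for 10 genes in 4 gates, the NK gate included, with exact two-sided permutation tests over mice. Of the 40 comparisons 0 passed the adjustment (smallest adjusted p = 0.8), and none could have passed it, since 3 against 3 mice give no p below 0.1.

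Other genes of the killing programme were read from 4 lists. Of 15 granule and killing genes 14 were tested in the fit of the 4 gates. Between CD8 and conventional CD4 cells 22.8% of all genes tested were higher and 22.2% lower in CD8 cells. Of these 14 genes 4 were higher and 4 lower, near those shares. Cst7, a protease inhibitor of the granule (2.91), and Ctsw, a cathepsin of cytotoxic cells (2.69), were higher. Fasl, the death ligand of the other killing pathway, was lower (-2.91). Of 17 NK receptors 16 were tested, and 12 were higher and 2 lower, among them Cd160 (2.43) and Cd226 (1.76). Of 11 transcription factors 10 were tested, and 5 were higher and 4 lower, with Runx3, which keeps CD8 identity, higher by 2.14, Hopx by 2.42 and Tbx21 (T-bet) by 1.64. Of 13 cytokines, chemokines and receptors 11 were tested, and 8 were higher and 2 lower, with Cxcr6 (2.80) and Il2rb (1.63) higher. The medians of these lists were -0.01, 2.49, 0.27 and 1.63, against 0.00 over all genes tested.

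In gamma-delta against CD8 cells the 4 lists, with 14, 16, 10 and 11 members tested, had 3, 5, 3 and 7 higher and 0, 1, 1 and 0 lower, where 4% of all genes were higher and 5.43% lower. Their medians were 0.34, 0.14, 0.20 and 1.34. Fasl was higher by 3.93, Klrk1 (NKG2D, an activating receptor) by 3.42, Tbx21 by 2.10 and Il18r1 by 2.21, and Runx3 was lower by -0.55. In NK against CD8 cells 6, 13, 4 and 9 of the same 14, 16, 10 and 11 were higher and 0, 0, 2 and 0 lower, where 5.75% of all genes were higher and 12.2% lower. The medians were 0.62, 5.75, 0.47 and 2.65, against -0.35 over all genes, and NK receptors near 0 in the other gates could be tested only through their NK level. Fasl was higher by 6.03, Serpinb9, an inhibitor of granzyme B, by 3.76, Zeb2 by 5.16 and Ccl3 by 6.62. Between genotypes 0 genes of the lists passed in CD8, conventional CD4 or gamma-delta cells with edgeR. In CD8 cells 4, 1, 3 and 4 of the 14, 11, 10 and 10 tested had an unadjusted p under 0.05, a level that 6.78% of all genes reached, with Ifng at 0.85 (adjusted p = 0.581), Ikzf2 at 0.39 (adjusted p = 0.361) and Serpinb6b at 0.51 (adjusted p = 0.382).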

How the data were processed

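Single-cell libraries of 6 mice were analysed from the deposited raw UMI counts per gene and barcode, which the authors made with Cell Ranger 6.1.2 on mm10, per the submitters' processing notes. The labels' protocols state 3 mice per group. Cells were kept with at least 500 UMIs, at least 300 genes and at most 10% mitochondrial UMIs, and Scrublet (scanpy 1.11.5) doublets were removed at 0.8% per 1000 barcodes. No deposited file names cell types.

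Gates used marker UMIs and no member gene. T cells had at least 2 Cd3d, Cd3e or Cd3g UMIs, at most 1 UMI of Cd79a, Cd79b and Ms4a1 together, and no Ncr1. CD8 cells had at least 2 Cd8a or Cd8b1 UMIs and no Cd4 or Trdc. Conventional CD4 cells had Cd4 and no CD8, Foxp3 or Trdc UMI, and regulatory cells also had Foxp3. Gamma-delta cells had at least 2 Trdc UMIs and no Cd4 or CD8. NK cells had at least 2 UMIs of Ncr1, Klrb1c and Klre1, at most 1 CD3 UMI and at most 1 B cell UMI. B cells had at least 3 B cell UMIs and no CD3. Myeloid or dendritic cells had at least 5 UMIs of Lyz2, Cst3, Fscn1 and Siglech.

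Counts were summed per mouse and gate and tested with edgeR 4.0.16 (R 4.3.3; TMM, its low-count filter, quasi-likelihood, Benjamini-Hochberg at 0.05), with DESeq2 1.42.0 as an alternative. The code was tested on simulated data. SE is the log2 fold change over the square root of F. Intervals run 1.96 SE to each side, which with few mice is too narrow, most of all for genes that vary between mice. Levels are CPM, computed from the counts of the gate without scaling factors. Named genes are the 10 members, up to 4 genes of smallest p per list and comparison, and the 8 genes most alike in level. Members and lists were chosen with earlier results of these data known. The floxed gene and 1 planned comparison within CD8 cells are not reported here. Cells per mouse limit the precision, and floors for a count of 0 (3 counts) cover counting error only. Gene positions are from GENCODE on mm10.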

Additional observations from a re-analysis of the deposited data

Results flagged for a closer look

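Each gene and gate was searched for a mouse far from the other 5, by the gap to the nearest value over the whole range, against Dixon's 95% critical value. Of 31 pairs of gene and gate examined, 3 had such a mouse, and chance gives about 1 in 20. Gzma in CD8 cells of Cre-negative 1 was at 26.6 CPM, where the other mice ranged from 0.443 to 1.62, and 245 of its 247 UMIs were in 1 cell. Gzmb in conventional CD4 cells of Cre-negative 1 was at 0.414 CPM, where the others ranged from 0.0876 to 0.204. Gzmb in NK cells of Cre-positive 1 was at 464 CPM, where the others ranged from 0 to 64.3, on 10 cells.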

How the results depend on the processing

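Alternatives were DESeq2, no low-count filter, doublets kept, 5% mitochondrial UMIs, 2000 UMIs per cell, stricter and looser gates, the block, each mouse left out, and, chosen after seeing the data, leaving out the 2 cells richest in Gzma and Ccl5. Over these, 703 member values kept their direction and side of the threshold, 7 lost the threshold, 11 reached it and 37 turned direction. None of the 37 belonged to a call, and no cause was tested. Calls lost are given in the report. The calls gained were Ccl5 in gamma-delta cells by genotype, Nkg7 (looser gates) and Klrd1 in gamma-delta against CD8 cells, and Eomes in conventional CD4 against regulatory cells without Cre-negative 3.

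For genotype in CD8 cells the count of all genes that passed was 3, and 6 with DESeq2, 5 with doublets kept, 5 at 5% mitochondrial UMIs, 68 without a filter, 11 with stricter gates and 1 to 18 with a mouse left out (18 without Cre-positive 1). In conventional CD4 cells it was 1, and 5 with DESeq2, 32 without a filter, 2 with stricter gates and 1 to 8 with a mouse left out (8 without Cre-positive 3). In gamma-delta cells it was 0, and 2 with looser gates, 1 at 5% mitochondrial UMIs, 3 without a filter and 0 to 8 with a mouse left out (8 without Cre-negative 3). For the interaction it was 5, and 0 with DESeq2, 49 without a filter and 2 to 25 with a mouse left out (25 without Cre-positive 1). CD8 against conventional CD4 cells gave 4596, and 2838 with DESeq2. Conventional CD4 against regulatory cells gave 3422, and 1593 with stricter gates.

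With the replicate number as a block, 27 genes passed in CD8, 9 in conventional CD4 and 4 in gamma-delta cells, among them Ccl5 in gamma-delta cells (adjusted p = 0.0329). In the labels same-numbered mice share only a number. Correlations of deviations between same-numbered mice, 1 to 3, were 0.0262, -0.0911 and 0.165 in CD8 cells. They were -0.0337, -0.186 and 0.312 in conventional CD4 and 0.0522, 0.0121 and 0.293 in gamma-delta cells. Cre-negative 1 correlated best with Cre-positive 2, at 0.166, 0.371 and 0.218 in these gates. In gamma-delta cells the mice numbered 3 correlated most of all pairs, so the values do not settle whether a block is right.

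Log2 values that turned direction were as follows. For genotype in CD8 cells they were Gzmk -0.0279 with doublets kept, -0.0655 with looser gates, -0.123 at 5% mitochondrial UMIs and -0.0500 with stricter gates, Eomes -0.0192 at 5% mitochondrial UMIs, Klrd1 -7.19e-04 and Prf1 -0.0415 with stricter gates, and Gzmb 0.0582 without the 2 cells. Genotype values in other gates were Prf1 0.0897 in gamma-delta cells with looser gates and Ccl5 0.315 in conventional CD4 cells with stricter gates (-0.65 in the report). For gamma-delta against CD8 cells Gzma was 0.943 with looser gates and 0.332 without the 2 cells, and Eomes 0.0217 with stricter gates. For conventional CD4 against regulatory cells Ccl5 was 0.124 with stricter gates (-1.60 in the report). With a mouse left out, genotype values in CD8 cells ranged from -3.46 to 0.709 for Gzma, -0.466 to 0.307 for Gzmb, -0.549 to 0.490 for Gzmk, -0.0194 to 0.0845 for Prf1, -0.0278 to 0.101 for Klrd1 and -0.127 to 0.294 for Eomes. They ranged from -0.0368 to 0.680 for Nkg7 in conventional CD4 cells and from -0.678 to 0.0748 for Prf1 in gamma-delta cells. The interaction ranged from -3.61 to 0.916 for Gzma, -0.262 to 0.474 for Gzmb, -1.55 to 0.577 for Gzmk and -0.662 to 0.216 for Nkg7. Gzma in gamma-delta against CD8 cells ranged from -2.89 to 0.272.

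Depth limits the rare members: Klrg1 and the granzymes outside NK cells rest on few UMIs. With 7 to 14 NK cells per mouse, levels in that gate were not tested by genotype.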

Other observations

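Most Gzmb UMIs of the node lay in 3 cells outside every gate, 1 in each Cre-positive mouse, with 195, 99 and 161 Gzmb UMIs. They held 9, 55 and 167 UMIs of Cpa3, a mast cell carboxypeptidase, and 8, 7 and 8 of Ms4a2, a chain of the high-affinity IgE receptor. Mcpt8, the other gene listed for mast cells and basophils, had 0, 1 and 86 UMIs, so the 3 cells were not alike in it. They held 5, 0 and 20 Nkg7 UMIs, no Gzma, Gzmk, Gzmm, Ccl5, Klrd1, Klrg1 or Eomes UMI, and at most 1 Prf1 and 1 Cd3e UMI. With 1 cell per mouse no comparison of genotypes was made, and these cells were singled out after their values were seen.

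Regulatory T cells of 2 mice stood high in Ccl5, at 499 and 321 CPM in Cre-positive 1 and 2, where the other 4 mice ranged from 13.2 to 45.5. Gzmb in that gate was at 29.1 CPM in Cre-positive 2, on 35 UMIs.

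Over the 24 sums of the 4 gates, the genes whose level followed the mean of the members most closely were Stat4 (r = 0.934), Chsy1 (0.931), Ctla2a (0.930), Samd3 (0.927), Klra1 (0.910), AW112010 (0.910), Myb (0.907) and Ccl4 (0.907). These sums share mice and libraries, and r is given as a description. Klra1 belongs to a family of near-identical genes, and its counts are uncertain. Of the members themselves Eomes (0.936) and Prf1 (0.926) lay closest to that mean, which includes them, and Klrg1 (0.596) farthest.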
